A study of Mus musculus with 24 samples.

Results

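The mouse Toll-like receptor genes Tlr1, Tlr2, Tlr3, Tlr4, Tlr5, Tlr7, Tlr8, Tlr9, Tlr12 and Tlr13 were read in tissue-resident macrophages (TRMs) taken straight from brain, liver, peritoneum and lung, and in long-term cultures grown from the same organs. These 10 genes were chosen by name, as members of the family, with earlier results of these data known. They were 10 of the 45706 genes in the count table. Tlr6 and Tlr11, which were outside this choice, are named only where a value of theirs touches a member.

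Toll-like receptors are membrane proteins that recognise conserved microbial molecules or nucleic acids and recruit the adaptors MyD88 or TRIF, which leads to NF-kB and IRF activation and to cytokine transcription. Surface receptors recognise cell wall components and flagellin: TLR4 binds lipopolysaccharide with its co-receptor MD-2, TLR2 pairs with TLR1 or TLR6 to bind lipoproteins, and TLR5 binds flagellin. Endosomal receptors recognise nucleic acids (TLR3 double-stranded RNA, TLR7 and TLR8 single-stranded RNA or its breakdown products, TLR9 CpG DNA and TLR13 bacterial ribosomal RNA), apart from TLR12, which binds the parasite protein profilin. The endosomal members depend on the chaperone UNC93B1 and several of them are cut by lysosomal proteases before they signal.

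All samples came from C57BL/6J mice, labelled as female and 8 to 12 weeks old, with 3 biological replicates in each of 8 groups and no further treatment. The 4 sorted groups were microglia (MG), Kupffer cells (KC), peritoneal macrophages (PM) and alveolar macrophages (AM), each purified ex vivo by flow cytometry. The 4 cultured groups, called TRM-like cultures (LC), were MG-LCs grown with M-CSF and IL-34, KC-LCs and PM-LCs grown with M-CSF, and AM-LCs grown with GM-CSF. MG-LCs, KC-LCs and PM-LCs were kept at low oxygen, whereas AM-LCs were kept at atmospheric oxygen without glucose, so the organ and the culture conditions cannot be told apart in any comparison with AM-LCs, nor the organ and IL-34 in one of MG-LCs with the other 2, while KC-LCs and PM-LCs shared growth factor, medium and oxygen. Each culture flask was seeded with a cell suspension of the organ, pooled from 3 mice for brain, lung and peritoneum, and not with sorted cells, so the step from sorted to cultured cells changes the method of purification as well as the surroundings. In bulk samples, fewer cells of a type and less RNA per cell cannot be told apart.

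Library depth lay between 29569486 and 47105111 reads assigned to genes, with a median of 35965750, and 3 reads in a library, the limit that a count of 0 allows, corresponded to 0.0661 to 0.115 CPM (counts scaled to a common library size). The 6 general macrophage markers were detected in all 8 groups, and each sorted group held its organ's own identity markers at a summed level of at least 16583 CPM. The macrophage markers summed to 17043 to 18899 CPM in MG and to 2628, 7755 and 8786 CPM in MG-LC replicates 1, 2 and 3. In KC replicates 1, 2 and 3 they summed to 6783, 12151 and 15494 CPM. In AM and AM-LCs they summed to 2987 to 3114 and 2856 to 3540 CPM. In the cultures the organ markers were lower, at 519 to 3645 CPM for microglial markers in MG-LCs, 919.7 to 1240 CPM for Kupffer cell markers in KC-LCs, 82.9 to 159 CPM for peritoneal macrophage markers in PM-LCs and 3594 to 11223 CPM for alveolar macrophage markers in AM-LCs. Some libraries stood apart from their group: MG-LC replicate 1 held 30979 CPM of 8 fibroblast and mesothelial markers (7.39 and 1012 CPM in replicates 2 and 3), PM-LC replicate 2 held 2209 CPM of them, AM-LC replicate 3 held 1668 CPM, and KC replicate 1 held 698 CPM of 8 dendritic cell markers (95.1 and 112 CPM in the other two). Counts of calls, and several results of single genes that rest on these libraries, are given with and without them.

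Promoter sequences are shown for Tlr5, Tlr8 and Tlr12, which differed steeply with culture in at least 1 organ, and for the 3 members with a motif match, so that the stretch of DNA before each start site can be read beside the values that follow. RefSeq promoters of the GRCm38.p6 build were held for 8 of the 10 members, with no entry for Tlr4 and Tlr7. They were searched on both strands for GAGGAAG, the core of the site bound by PU.1, the factor that specifies the macrophage lineage, and for an interferon regulatory factor type repeat, GAAA and GAAA with any 2 bases between them. Of 32851 promoters of the same length, 3486 (10.6%) held GAGGAAG and 978 (2.98%) held the repeat. GAGGAAG occurred in the windows of 3 members (Tlr1, Tlr9 and Tlr13), and the repeat occurred in none. The sequences below run 5′ to 3′ on the gene's strand, end at the base before the first start site of the gene in RefSeq or GENCODE, and carry GAGGAAG in capitals.
Tlr1 (chr5:64933564-64933808, minus strand, match 16 bases before the RefSeq start and 11 before the printed end): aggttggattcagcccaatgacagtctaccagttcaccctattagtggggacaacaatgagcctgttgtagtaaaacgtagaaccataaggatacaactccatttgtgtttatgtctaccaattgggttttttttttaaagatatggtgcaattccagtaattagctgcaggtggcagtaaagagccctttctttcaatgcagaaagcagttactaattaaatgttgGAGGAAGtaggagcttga
Tlr5 (chr1:182954538-182954787, plus strand, no match): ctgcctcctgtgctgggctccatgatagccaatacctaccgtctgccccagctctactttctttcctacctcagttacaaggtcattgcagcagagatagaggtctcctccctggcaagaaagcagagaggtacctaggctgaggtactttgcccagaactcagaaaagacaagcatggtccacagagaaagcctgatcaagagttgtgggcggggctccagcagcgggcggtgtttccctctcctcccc
Tlr8 (chrX:167264330-167264579, minus strand, no match): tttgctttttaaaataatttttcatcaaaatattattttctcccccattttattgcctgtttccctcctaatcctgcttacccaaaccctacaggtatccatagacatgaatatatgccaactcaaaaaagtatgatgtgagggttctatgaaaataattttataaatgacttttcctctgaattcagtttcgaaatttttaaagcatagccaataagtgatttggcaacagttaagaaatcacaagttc
Tlr9 (chr9:106222348-106222597, plus strand, match 105 bases before the start): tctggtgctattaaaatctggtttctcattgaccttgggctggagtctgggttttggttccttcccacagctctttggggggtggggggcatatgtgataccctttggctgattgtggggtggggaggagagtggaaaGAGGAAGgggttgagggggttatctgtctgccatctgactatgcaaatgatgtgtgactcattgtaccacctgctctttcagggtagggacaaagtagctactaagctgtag
Tlr12 (chr4:128618620-128618869, minus strand, no match): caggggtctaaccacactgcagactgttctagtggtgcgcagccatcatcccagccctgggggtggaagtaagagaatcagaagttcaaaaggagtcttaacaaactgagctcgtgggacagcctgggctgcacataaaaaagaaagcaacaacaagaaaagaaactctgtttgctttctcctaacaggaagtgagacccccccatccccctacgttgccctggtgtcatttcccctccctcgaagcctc
Tlr13 (chrX:106143025-106143203, plus strand, match 76 bases before the RefSeq start and 5 before the printed end, which lies at the GENCODE start): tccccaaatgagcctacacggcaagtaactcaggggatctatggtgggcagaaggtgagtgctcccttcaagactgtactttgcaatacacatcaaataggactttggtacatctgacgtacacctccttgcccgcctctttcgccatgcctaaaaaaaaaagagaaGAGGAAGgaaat
A match is a description of letters in the window. No match says only that these letters were not found in this window.

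The first question was how each receptor gene differed between cells ex vivo and the culture of the same organ. Among the 4 organs, microglia and alveolar macrophages showed the most differences, as they also did over all genes tested. In MG against MG-LCs, 6 of 10 members were called at an adjusted p under 0.05 (5 higher ex vivo and 1 higher in vitro), where 46.4% of all genes tested were called (21.2% were higher in MG and 25.2% in MG-LCs). In KC against KC-LCs, 4 of 10 were called (3 higher ex vivo, 1 higher in vitro), against a background of 33.8% (19.4% and 14.4%). In PM against PM-LCs, 3 of the 8 members tested were called, all higher in vitro, against a background of 28.9% (12.1% higher ex vivo and 16.8% higher in vitro). No member was higher in PM by edgeR's quasi-likelihood test, by DESeq2 or by limma-voom, and 0 were at an unadjusted p under 0.05 in that direction. In AM against AM-LCs, 6 of 8 were called (4 higher ex vivo, 2 higher in vitro), against a background of 48.7% (22.9% and 25.9%). With all libraries, the members' counts in KC and PM were close to the background share and those in MG and AM were above it, and the list was not tested as a list. With 1 library left out at a time, the MG count was 4 to 6 and the AM count 5 to 6. The background share was not read for those smaller fits. Leaving out the libraries that stood apart gave 6 calls in MG without MG-LC replicate 1, 3 in KC without KC replicate 1, 5 in PM without PM-LC replicate 2 and 5 in AM without AM-LC replicate 3. The KC count was 2 without KC-LC replicate 1 or 2, and the PM count was 1 without PM replicate 1 or PM-LC replicate 1.

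The median log2 fold change of the members (ex vivo minus in vitro) was 1.17 in MG, 0.29 in KC, -1.04 in PM and 0.53 in AM, beside -0.031, 0.0095, -0.013 and -0.037 over all genes tested. The KC median did not move with Tlr12, which was at 0 in KC-LCs, set to its lower bound. Surface and endosomal members were called in both directions. Of the 4 surface genes, 2 were higher ex vivo in MG, 1 in KC and 3 in AM, and 1 was higher in vitro in each of PM and AM. Of the 6 endosomal genes, 3 in MG and 2 in KC were higher ex vivo, and 1 in each organ was higher in the culture. Of the 4 endosomal genes that could be tested in PM and AM, 2 were higher in PM-LCs, and in AM 1 went each way.

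**Figure D1:**
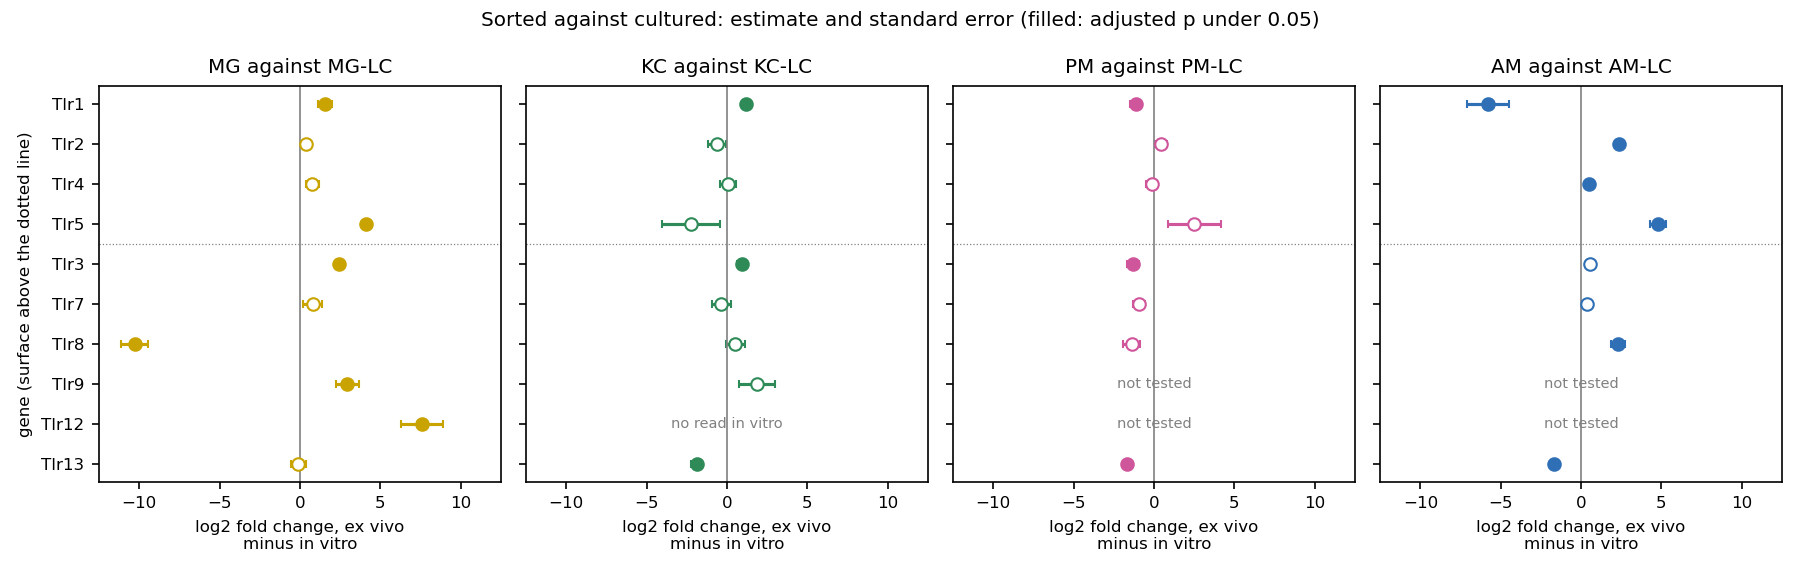
Log2 fold change (ex vivo minus in vitro, x axis) of each receptor gene (y axis) in the 4 organs, from edgeR, with bars of 1 standard error and filled points for an adjusted p under 0.05. Genes left untested and Tlr12 in KC, which had no read in vitro, are marked in words. Tlr13 lies on the in vitro side in KC, PM and AM and near 0 in MG, while Tlr8 lies far on the in vitro side in MG (-10.29) and on the ex vivo side in AM (2.29).

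An F test of population by state asked whether the culture difference itself differed among the 4 organs. It was called for 7 of 10 members, against 36.3% of the 17408 genes tested. These were Tlr8 (adjusted p = 1.13e-06), Tlr3 (1.45e-05), Tlr1 (3.39e-05), Tlr12 (8.48e-05), Tlr2 (0.00323), Tlr5 (0.0255) and Tlr13 (0.0263) (edgeR, quasi-likelihood, adjusted by Benjamini-Hochberg). Tlr9 (0.0518), Tlr7 (0.261) and Tlr4 (0.508) did not pass. The calls of Tlr13 and Tlr5 each ended without some single libraries, with an adjusted p of up to 0.0743 for Tlr13 (MG replicates 1 to 3 and MG-LC replicates 1 and 3) and of up to 0.0738 for Tlr5 (KC replicate 2 and KC-LC replicate 1), whereas Tlr9 passed under 4 other settings (0.0065 to 0.0472) and without any 1 of 5 libraries (0.026 to 0.0491).

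**Figure D2:**
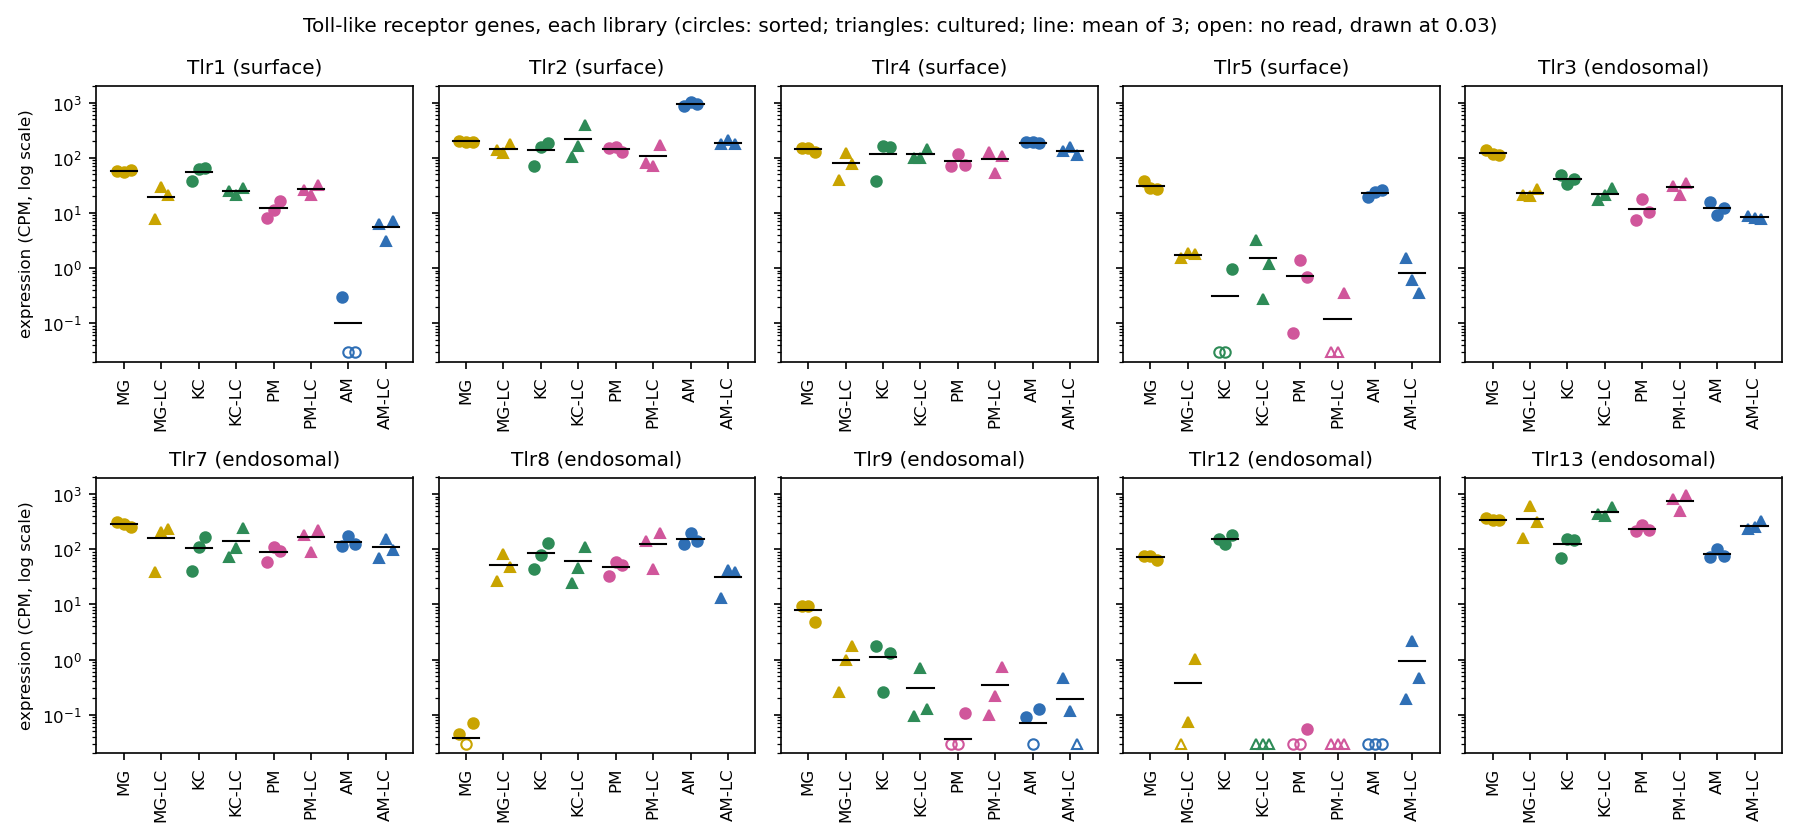
Level of each receptor gene in CPM (y axis, log scale) in each of the 24 libraries, grouped by organ and state on the x axis, with 1 point per library (circles sorted, triangles cultured, open marks for no read) and a line at the group mean. Tlr12 is high in KC (123 to 180.3 CPM) and MG (64.9 to 76.5 CPM) and at or near 0 elsewhere, and Tlr8 is high in every group but MG.

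Tlr2, on chr3:83836272-83841767 of GRCm38 (minus strand, ENSMUSG00000027995), encodes the shared subunit of the lipoprotein receptors and was the highest surface member in alveolar macrophages. AM libraries held 852, 1042 and 942 CPM and AM-LC libraries held 176, 208 and 175 CPM. The lowest AM library was above every library of the other 7 groups, whose values lay between 71.8 and 394 CPM. The AM to AM-LC difference was 2.34 ± 0.14 on the log2 scale (SE, adjusted p = 5.88e-05). In MG the 3 libraries were at 204, 196 and 193 CPM and in MG-LCs at 138, 119.9 and 178 CPM. These groups did not overlap, but the difference of 0.40 ± 0.20 did not pass (adjusted p = 0.146), although it did without MG-LC replicate 3 (0.0403). In KC and PM the libraries of both states overlapped. KC lay at 71.8, 158 and 188 CPM and KC-LCs at 104, 162 and 394 CPM, and PM lay at 153, 158 and 126 CPM and PM-LCs at 80.3, 72.2 and 169 CPM. Without PM-LC replicate 3, the highest of its group, PM was called higher than PM-LCs (adjusted p = 0.00603).

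Tlr4, on chr4:66827584-66930284 (plus strand, ENSMUSG00000039005), the lipopolysaccharide receptor, was the most even member. Its group means lay between 80.1 ± 42.3 CPM in MG-LCs and 188 ± 4.87 CPM in AM (SD, n = 3). AM libraries held 190.1, 192 and 183 CPM and AM-LC libraries held 133, 159 and 113 CPM, with no overlap. That difference, 0.48 ± 0.13 on the log2 scale, was the only one of the 4 called for Tlr4 (adjusted p = 0.0188), and the call ended without any 1 of AM replicates 1 to 3 or AM-LC replicates 1 and 3 (adjusted p = 0.0521 to 0.068) and with all 24 libraries in 1 model (0.433). Between MG (149, 151 and 125 CPM) and MG-LCs (39.0, 124 and 77.6 CPM) the difference was 0.78 ± 0.40 (adjusted p = 0.152), and it passed without MG-LC replicate 2 (0.0354). KC replicate 1 was at 37.5 CPM, against 161 and 153 CPM in replicates 2 and 3, so KC spanned the whole range of KC-LCs (98.5, 99.8 and 146 CPM). Without KC replicate 1 the KC difference was still not called (edgeR, adjusted p = 0.167). PM (70.0, 117 and 72.8 CPM) and PM-LCs (127, 52.6 and 109 CPM) overlapped as well.

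Tlr1, on chr5:64924679-64933563 (minus strand, ENSMUSG00000044827), encodes the partner of TLR2 for triacylated lipoproteins, and its culture difference turned direction between organs. MG libraries held 58.2, 55.7 and 60.3 CPM and MG-LCs 7.73, 28.9 and 21.3 CPM. KC libraries held 38.7, 63.2 and 64.0 CPM and KC-LCs 24.9, 21.5 and 28.2 CPM. In both organs every sorted library was above every cultured one, with log2 differences of 1.55 ± 0.45 (adjusted p = 0.0326) and 1.19 ± 0.27 (adjusted p = 0.0141). The order was the opposite in the other 2 organs. PM held 8.12, 11.5 and 16.6 CPM and PM-LCs 26.5, 21.5 and 32.5 CPM, a difference of -1.15 ± 0.32 (adjusted p = 0.0332). AM held 10, 0 and 0 reads and AM-LCs 6.31, 3.09 and 7.0 CPM, so that Tlr1 was at or below the detection limit in 2 of 3 AM libraries and called higher in AM-LCs (-5.82 ± 1.31, adjusted p = 0.00914). The calls in MG, KC and PM each ended without some single libraries: MG replicates 1 to 3 and MG-LC replicate 3 (adjusted p up to 0.0981), KC-LC replicates 1 and 2 (up to 0.0712), and PM replicates 1 and 2 and PM-LC replicates 1 and 3 (up to 0.12). With all 24 libraries in 1 model the KC and PM calls also ended (adjusted p = 0.112 and 0.144). Of the 50-base windows of Tlr1, 15.4% also occur in other genes, Tlr6 among them, so reads from those windows could not be assigned to Tlr1 alone.

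Tlr5, on chr1:182954788-182976044 (plus strand, ENSMUSG00000079164), the flagellin receptor, was present in MG and AM and nearly absent elsewhere. MG libraries held 37.2, 27.9 and 27.1 CPM and AM libraries 19.3, 23.9 and 26.1 CPM. In MG-LCs the values were 1.54, 1.87 and 1.77 CPM and in AM-LCs 1.5, 0.611 and 0.359 CPM. Both organs therefore held less in culture, with mean levels 17.8 and 28.0 times higher ex vivo, no overlap, and log2 differences of 4.11 ± 0.25 (adjusted p = 0.000638) and 4.80 ± 0.50 (adjusted p = 0.000418). In KC, KC-LCs, PM and PM-LCs no library exceeded 3.17 CPM, and neither culture difference was called (adjusted p = 0.37 in KC and 0.289 in PM), though each passed without 1 library, KC replicate 3 (0.0338) and PM-LC replicate 3 (0.049).

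Among the endosomal receptors, Tlr3, on chr8:45395665-45411080 (minus strand, ENSMUSG00000031639), the receptor for double-stranded RNA, was highest in microglia. MG libraries held 140.0, 117 and 113 CPM and MG-LCs 20.9, 20.3 and 26.7 CPM, 5.46 times less on average. The groups did not overlap (log2 difference 2.40 ± 0.18, adjusted p = 0.000804), and the lowest MG library was above every library of any other group. KC held 49.5, 33.8 and 41.4 CPM and KC-LCs 17.3, 21.5 and 28.4 CPM, a smaller difference in the same direction (0.93 ± 0.29, adjusted p = 0.0402). PM went the other way, with 7.35, 17.9 and 10.4 CPM against 30.7, 21.4 and 35.4 CPM in PM-LCs (-1.29 ± 0.37, adjusted p = 0.0379). The calls in KC and PM ended without most single libraries, with adjusted p of 0.0504 to 0.141 in KC (without KC replicate 1 or 3 or any 1 KC-LC library) and 0.0741 to 0.133 in PM (without PM replicate 1 or 3 or PM-LC replicate 1 or 3). AM (16, 9.0 and 12.3 CPM) and AM-LCs (8.89, 8.02 and 7.86 CPM) did not differ beyond the threshold (0.58 ± 0.26, adjusted p = 0.103). The antisense gene Gm45542 overlaps Tlr3 over 381 bases, and because the library kit does not mark strand, reads there cannot be told apart.

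Tlr7, on chrX:167304929-167330558 (minus strand, ENSMUSG00000044583), which senses single-stranded RNA, was not called in any of the 4 culture comparisons (adjusted p = 0.107 to 0.664). MG libraries held 312, 289 and 249.8 CPM, above every library of every other group. MG-LCs were widely spread at 39.1, 207 and 229.8 CPM, and the lowest of them was replicate 1, the library with 30979 CPM of fibroblast and mesothelial markers. Without that library Tlr7 was still not called in MG (edgeR, adjusted p = 0.0951). PM held 58.3, 109 and 94.4 CPM and PM-LCs 182, 89.9 and 227 CPM, where the lowest culture was replicate 2, with the most fibroblast markers of its group. In KC-LCs and AM-LCs the lowest culture was replicate 1 (71.2 and 70.4 CPM), with the least of these markers in its group (0.0240 and 17.1 CPM). The part of fibroblasts in the Tlr7 level was not tested. Without PM-LC replicate 2, Tlr7 was called higher in vitro (adjusted p = 0.015). KC and KC-LCs (40.8 to 168 and 71.2 to 244 CPM) and AM and AM-LCs (115 to 173 and 70.4 to 156 CPM) overlapped.

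Tlr8, on chrX:167242696-167264329 (minus strand, ENSMUSG00000040522), lies beside Tlr7 on the X chromosome and was the member with the steepest rise in culture, in microglia. MG libraries held 2, 0 and 3 reads in all, none above the limit that a count of 0 allows, whereas MG-LCs held 26.6, 82.5 and 48.0 CPM. The cultures were therefore 1357 times higher on average, a ratio that rests on 5 reads ex vivo (log2 difference -10.29 ± 0.84, adjusted p = 0.000909). AM went the other way, with 127, 195 and 140.4 CPM against 12.9, 41.5 and 38.6 CPM in AM-LCs (2.29 ± 0.44, adjusted p = 0.00487). Neither organ showed an overlap between states. In KC (44.2, 79.9 and 129 CPM) and KC-LCs (24.6, 46.7 and 110.2 CPM) the libraries overlapped. PM (32.4, 59.7 and 52.2 CPM) and PM-LCs (138, 43.3 and 198 CPM) overlapped through PM-LC replicate 2 alone, and without it Tlr8 was called higher in vitro (adjusted p = 0.0034, against 0.0855 with all libraries, and 0.0222 by DESeq2 with all libraries). All of the other 7 groups held Tlr8 at 12.9 CPM or more in every library, so MG was the only group without it.

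Tlr9, on chr9:106222598-106226883 (plus strand, ENSMUSG00000045322), the receptor for CpG DNA, was low throughout. MG libraries were the highest at 9.52, 9.39 and 4.77 CPM, with no overlap with any other group, and MG-LCs held 0.257, 0.971 and 1.74 CPM. Its level was 7.97 times higher ex vivo (log2 difference 2.95 ± 0.74, adjusted p = 0.0199), a call that ended without any 1 MG library or MG-LC replicate 2 (adjusted p = 0.0541 to 0.0824) and with all 24 libraries in 1 model or a replicate block (0.0502 to 0.0747). KC held 1.74, 0.260 and 1.34 CPM and KC-LCs 0.0960, 0.698 and 0.126 CPM, without a call (adjusted p = 0.227). In PM and AM 4 and 8 reads were counted over the 3 libraries, and Tlr9 was too low to be tested against culture there. B cells, which express Tlr9, were looked for with 8 markers. In MG these summed to 34.1 to 37.9 CPM, mostly Cd79b, with 5 of 8 at 0 (Ms4a1 and Pax5 among them), against 0.946 to 6.83 CPM in MG-LCs. In KC they summed to 90.7 to 142 CPM with none at 0, against 0.378 to 1.12 CPM in KC-LCs. In PM they summed to 7.35 to 18.7 CPM. In PM-LC replicates 1, 2 and 3 they summed to 125, 1.41 and 1.37 CPM, where Tlr9 was at 0.0969, 0.215 and 0.734 CPM. The part of B cells in the Tlr9 level was not tested.

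Tlr12, on chr4:128615443-128618619 (minus strand, ENSMUSG00000062545), which pairs with TLR11 to bind profilin, was found in KC and MG and was at or near 0 in both of their cultures. KC libraries held 155, 123 and 180.3 CPM (5718, 4722 and 6319 reads) and all 3 KC-LC libraries held 0 reads. MG libraries held 76.5, 75.2 and 64.9 CPM (3472, 2778 and 2717 reads) and MG-LCs held 0, 3 and 36 reads. The level was at least 2060-fold higher in KC than in KC-LCs, with the cultures set to 3 reads per library (adjusted p = 0.000169), and 196 times higher in MG than in MG-LCs (log2 difference 7.60 ± 1.31, adjusted p = 0.00641). The MG ratio turned on MG-LC replicate 3, which held 36 of the 39 reads, and without it the log2 difference was 10.74. PM held 0, 0 and 2 reads, PM-LCs 0 in each library, AM 0 in each library, and AM-LCs 6, 56 and 13 reads, so AM-LCs were the only cultures with every library above the detection limit. The AM difference could not be tested, and the AM-LC mean was at least 11.6-fold above AM, or at least 4.12-fold without AM-LC replicate 2. Tlr11, outside the chosen members, is its partner and was also high in KC, at 92.3, 28.9 and 29.6 CPM, against 14 reads over the KC-LC libraries (log2 difference 8.75, adjusted p = 0.00269). In MG, where Tlr12 was present, Tlr11 was counted at 59 reads over the 3 libraries. The 8 dendritic cell markers summed to 698, 95.1 and 112 CPM in the KC libraries, where Tlr11 was also highest in replicate 1 but Tlr12 was highest in replicate 3, to 7.28 to 10.9 CPM in MG and to 0.840 to 1.70 CPM in KC-LCs. Their part in either gene's level was not tested.

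Tlr13, on chrX:106143204-106160493 (plus strand, ENSMUSG00000033777), the receptor for bacterial ribosomal RNA, was higher in culture than ex vivo in 3 organs. KC held 70.5, 156 and 145 CPM and KC-LCs 432, 395 and 576 CPM. PM held 212, 276 and 223 CPM and PM-LCs 812, 485 and 972 CPM, and AM held 71.6, 100.4 and 76.7 CPM and AM-LCs 229, 253 and 323 CPM. In none of these organs did the states overlap, and the log2 differences were alike in size, -1.88 ± 0.35 (adjusted p = 0.00665), -1.67 ± 0.28 (0.00474) and -1.71 ± 0.21 (0.000784). MG was the exception, with 361, 335 and 338 CPM against 158, 604 and 307 CPM in MG-LCs (-0.09 ± 0.47, adjusted p = 0.884). The lowest of those cultures was replicate 1. Without it the cultures lay at 307 and 604 CPM, on both sides of MG, and Tlr13 was not called (edgeR, adjusted p = 0.217).

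The second question was how the members differed among the organs, first among the sorted groups and then among the cultures. All 6 sorted pairs shared 12 libraries and 1 fit, so they are not independent of each other. Of 60 tests (10 genes in 6 pairs), 37 were called, and 45 without KC replicate 1. MG differed from KC in 7 members (background 42.2% of genes), from PM in 7 (44.7%) and from AM in 7 (54.7%). KC differed from PM in 5 (35.8%) and from AM in 6 (43.5%), and PM differed from AM in 5 (36.7%). Tlr1, Tlr3, Tlr9 and Tlr12 were each called in 5 pairs, Tlr5, Tlr8 and Tlr13 in 4, Tlr2 in 3, Tlr7 in 2 and Tlr4 in 0.

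Each sorted population had its own mix. MG stood highest in Tlr3, at log2 1.52 above KC (adjusted p = 0.00209), 3.32 above PM (8.47e-06) and 3.27 above AM (7.2e-06). It led in Tlr9 as well, and its Tlr5 was above that of KC (6.57, 0.00113) and PM (5.33, 0.00226) but not called against AM (0.37, 0.751). It was the lowest in Tlr8, at log2 -10.97 against KC, -10.16 against PM and -11.83 against AM, each resting on the same 5 reads. Tlr7 was higher in MG than in KC (1.36, adjusted p = 0.0195, but 0.0699 with all 24 libraries in 1 model) and PM (1.64, 0.00696). KC led in Tlr12, 2.12 times above MG (adjusted p = 0.00397, but 0.376 with all 24 libraries in 1 model) and at least 1902-fold above AM, and MG was at least 898-fold above AM. AM led in Tlr2, at log2 2.30 above MG (adjusted p = 3.98e-05), 2.75 above KC (1.83e-05) and 2.69 above PM (2.11e-05), and it had the lowest Tlr1, with 10 reads in 1 library and 0 in the others. PM led in no member. Its Tlr13 was above that of KC (log2 0.94, adjusted p = 0.0151) and AM (1.53, 0.000752), and the first of these calls ended without PM replicate 2 (adjusted p = 0.0586) and with all 24 libraries in 1 model (0.074). Tlr13 in MG stood further above KC (log2 1.42, edgeR, adjusted p = 0.0011) and AM (2.01, 6.68e-05). MG and PM were not called apart in Tlr13 (0.48, 0.148). The call for Tlr9 between MG and KC (2.76, adjusted p = 0.0456) ended without any 1 of 7 libraries, with adjusted p of up to 0.12, and with all 24 in 1 model (0.11).

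Among the cultures few differences passed the threshold. Of the 60 tests 6 were called by edgeR, all of them against AM-LCs and all in Tlr1 and Tlr3. Tlr1 was higher in MG-LCs (log2 1.79, adjusted p = 0.0368), KC-LCs (2.16, 0.0214) and PM-LCs (2.26, 0.0226) than in AM-LCs, and Tlr3 was higher by 1.46 (0.0121), 1.43 (0.0128) and 1.79 (0.00794). These were 2 of 10 members in each pair, beside 8.59%, 7.64% and 5.29% of all genes. In the 3 pairs among MG-LCs, KC-LCs and PM-LCs no member was called, where 0%, 0.0743% and 0.108% of all genes were called, and 1, 3 and 2 members had an unadjusted p under 0.05. DESeq2 called 9 of the 60 tests and limma-voom called 5. Leaving out AM-LC replicate 2 reduced the 6 calls to 1, and leaving out KC-LC replicate 3 or AM-LC replicate 1 reduced them to 3. The Tlr1 call of MG-LCs ended without any 1 of 9 libraries (edgeR, adjusted p up to 0.147). That of KC-LCs ended without any 1 of 5 (up to 0.0883) and that of PM-LCs without any 1 of 4 (up to 0.0961). The Tlr3 call of MG-LCs ended without 1 library (0.0611) and that of KC-LCs without either of 2 (up to 0.062). Tlr3 in PM-LCs stayed called in all 19 alternatives. The cultures were more spread within a group than the sorted libraries for several members (for Tlr7, an SD of 104 CPM in MG-LCs against 31.5 CPM in MG), so the smaller number of calls does not show that the cultures were alike.

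Levels of different genes were compared per kilobase of exon. On this scale (CPM per kilobase) Tlr2 in AM was the highest member in any group, at 314 ± 31.6 (SD, n = 3), followed by Tlr13 in PM-LCs at 176 ± 57.7 and in KC-LCs at 109 ± 22.2. In MG the leading members were Tlr13 (80.1 ± 3.34), Tlr7 (69.5 ± 7.71) and Tlr2 (65.6 ± 1.79), and Tlr12 (22.7 ± 2.01) and Tlr3 (23.7 ± 2.77) were close to each other. In KC Tlr12 (48.1 ± 9.11) stood beside Tlr2 (46.2), which was more spread between libraries. The sum over the 10 members was 313 ± 20.1 in MG, 219 ± 73.5 in KC, 159.8 ± 25.2 in PM and 451 ± 52.2 in AM, and 209.8 ± 89.1, 266 ± 113, 318 ± 120 and 187 ± 24.9 in their cultures.

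**Figure D3:**
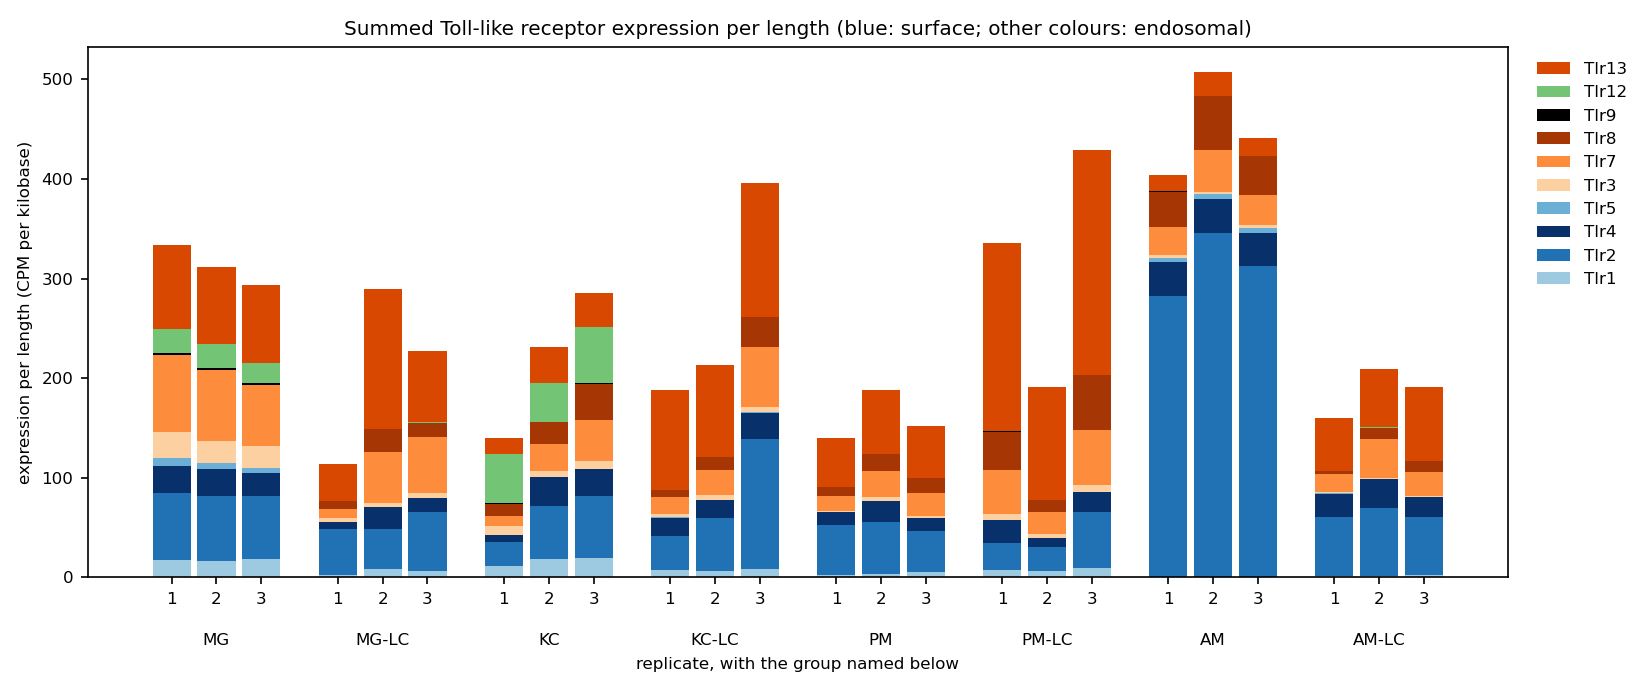
Expression per length (CPM per kilobase, y axis) of the 10 receptor genes, stacked in 1 bar for each of the 24 libraries (x axis), with surface genes in blue and endosomal genes in other colours. By group mean, AM is the only group in which surface genes hold most of the sum, with Tlr2 at 69.7%, and PM-LCs hold the largest endosomal share, with Tlr13 at 56.0%. In the bar of AM-LC replicate 1, surface genes also hold more than endosomal genes (84.4 against 76.0 CPM per kilobase).

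The endosomal genes held 63.3% ± 0.870 of the summed per-length level in MG, 62.7% ± 6.69 in KC, 57.5% ± 3.95 in PM and 21.7% ± 2.05 in AM. In the cultures they held 63.8% ± 12.2, 63.1% ± 4.94, 80.7% ± 1.95 and 52.7% ± 5.27. The mean shares of both states lay within 1 percentage point of each other in MG and KC, but this rested on libraries that stood apart. Without MG-LC replicate 1 the share of MG-LCs was 70.1%, and without KC replicate 1 that of KC was 59.1%. The libraries of PM-LCs (79.1 to 82.9%) and AM-LCs (47.4 to 57.9%) lay wholly above those of PM (53.0 to 60.5%) and AM (20.4 to 24%). The share is a sum over chosen genes and was given no test. It turned on few of them: Tlr2 alone made up 69.7% ± 1.39 of the sum in AM and 33.2% in AM-LCs, and Tlr13 made up 34.6% in PM and 56.0% in PM-LCs. Without Tlr13 the endosomal share was 35% in PM, 55.9% in PM-LCs, 18.2% in AM and 28.9% in AM-LCs, so the order of states stayed in both organs. The share in MG and MG-LCs without Tlr13 was 50.6% and 42.8%. Without Tlr13 it was 57% in KC and 34.6% in KC-LCs. Tlr12 made up 23.9% of the sum in KC and 0 in KC-LCs, and Tlr13 made up 13.1% and 43.4%.

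The partners of the receptors were read from 7 lists of 50 genes in all, from chaperones to negative regulators. Of them 38% were called in MG, 34% in KC, 52% in PM and 65.3% in AM, beside 46.4%, 33.8%, 28.9% and 48.7% of all genes. Those higher ex vivo numbered 11 in MG, 11 in KC, 12 in PM and 17 in AM, and those called in the other direction numbered 8, 6, 14 and 15, where 50 genes were tested in each organ but AM (49). Unc93b1, the chaperone that carries the endosomal receptors to the endolysosome, was higher ex vivo in MG (2060 against 621 CPM, log2 difference 1.69, adjusted p = 0.0347), KC (1.20, 0.0398) and AM (0.82, 0.00476), and in PM it was at -0.14 (0.727). The MG and KC calls ended without single libraries, MG replicate 1, 2 or 3 or MG-LC replicate 2 (adjusted p up to 0.104), and KC replicate 2 or 3 or any KC-LC library (up to 0.111). The MG call also ended with a replicate block (0.059), and the AM call with all 24 libraries in 1 model (0.0971). Of the 5 chaperone and trafficking genes, 2 were higher ex vivo in MG, 1 in KC, 1 in PM and 2 in AM, and 1 was higher in culture in each of MG, PM and AM. Called either way were 60%, 20%, 40% and 60% of this list in MG, KC, PM and AM, beside the shares of all genes given above. The 4 proteases that cut endosomal receptors went the other way in PM, where Lgmn, Ctss, Ctsb and Ctsl were all higher in vitro, and in AM, where Lgmn, Ctsb and Ctsl were. Ctsb rose from 2564 to 21242 CPM between AM and AM-LCs (-3.06, adjusted p = 4.7e-05) and from 3258 to 21424 CPM between MG and MG-LCs (-2.76, 0.0229), and Ctsl rose from 343 to 3330 CPM between PM and PM-LCs (-3.28, 4.91e-05) and from 354 to 4500.2 CPM between AM and AM-LCs (-3.67, 3.21e-05). In MG and KC 1 protease each was called toward culture, Ctsb in MG and Ctsl in KC, and Lgmn was higher in KC. Called either way were 25%, 50%, 100% and 75% of the proteases in MG, KC, PM and AM. The Ctsb call in MG ended without any 1 MG library (adjusted p up to 0.162) and with a replicate block (0.0901).

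**Figure D4:**
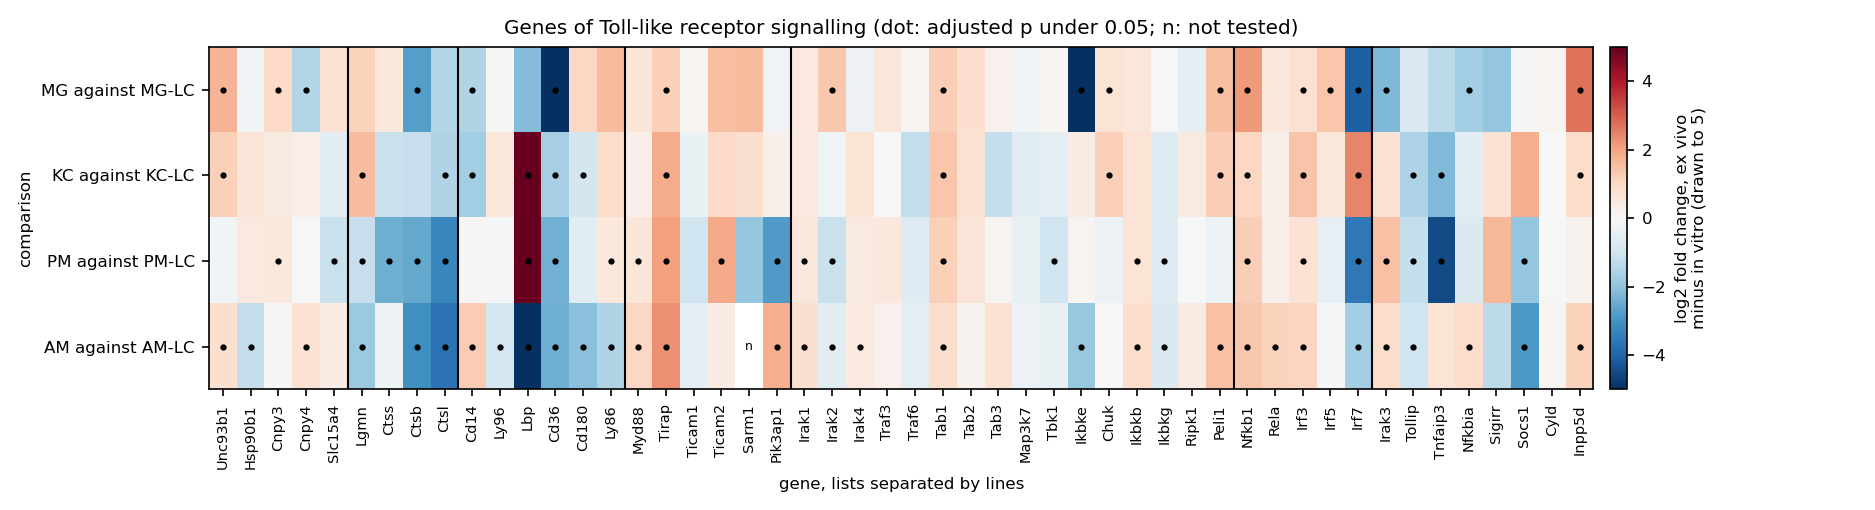
Colour map of the log2 fold change (ex vivo minus in vitro, colours drawn to 5 in either direction) of the 50 partner genes (x axis, lists separated by lines) in the 4 organs (y axis), with a dot for an adjusted p under 0.05. The 4 proteases lie on the in vitro side in PM and AM, and Lbp lies on the ex vivo side in KC and PM and on the in vitro side in AM.

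Co-receptors of TLR4 and TLR2 were also read in the F test of population by state, where 36.3% of all genes were called. It was called for Cd36 (edgeR, adjusted p = 4.23e-07), Lbp (2.04e-05), Cd14 (0.000141) and Cd180 (0.00386). Ly96 (0.0621) and Ly86 (0.111) did not pass, so no difference among organs is read for them. Of 6 genes, 2 in MG, 3 in KC, 1 in PM and 5 in AM were higher in culture, and 0, 1, 2 and 1 were higher ex vivo. Over all genes, in the same order, 25.2%, 14.4%, 16.8% and 25.9% were higher in culture and 21.2%, 19.4%, 12.1% and 22.9% ex vivo. Cd14, which passes lipopolysaccharide to TLR4, was higher in vitro in MG (log2 difference -1.52, adjusted p = 0.0321) and KC (-1.73, 0.0122), higher ex vivo in AM (1.27, 0.000566) and at 0.05 (0.88) in PM. Ly96, which encodes MD-2, was called in AM alone (-0.87, 0.0156). Lbp, the plasma protein that loads lipopolysaccharide onto CD14, fell from 33.9 to 0.0168 CPM between KC and KC-LCs (log2 difference 10.78 ± 0.79, adjusted p = 0.00025) and from 208 to 5.76 CPM between PM and PM-LCs (5.17, 9.09e-05), and rose from 0.00853 to 12.7 CPM between AM and AM-LCs (-10.05 ± 2.47, 0.0131). The means in KC-LCs and AM lay below the limit that a count of 0 allows (0.0661 to 0.115 CPM). The log2 sizes in KC and AM therefore rest on almost no reads on the low side. Hepatocytes, a major source of LBP, were read through 8 markers that summed to 106.5 to 247 CPM in KC and at most 0.324 CPM in KC-LCs, and their part in the Lbp level of KC was not tested. Cd36, a scavenger receptor that assists TLR2, was higher in vitro in all 4 organs, from 0.384 to 355 CPM in MG (-9.90, 0.000804), and by -1.64 (0.023), -2.40 (0.00163) and -2.44 (0.000693) in KC, PM and AM. Cd180, a surface relative of TLR4, and its partner Ly86 were both higher in vitro in AM (-2.08, 0.00479 and -1.51, 0.0114), while Cd180 was higher in vitro in KC (-0.93, 0.0263) and Ly86 higher ex vivo in PM (0.52, 0.0402). Several of these calls ended without 1 library: Cd14 in MG (MG replicate 1, 2 or 3 or MG-LC replicate 2, adjusted p up to 0.124), Cd180 in KC (any but KC replicate 1, up to 0.0763), Ly86 in PM (any PM library or PM-LC replicate 1 or 2, up to 0.124), Ly86 and Ly96 in AM (AM replicate 2 or 3, up to 0.0544 and 0.0653) and Lbp in AM (any AM library, up to 0.077, and under limma-voom, 0.0874). Without 1 library Ly86 passed in MG (MG-LC replicate 3, 0.00782) and Cd180 in PM (PM-LC replicate 2, 0.0279).

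Of the 6 adaptors (5 tested in AM), 1 in MG, 1 in KC, 3 in PM and 3 in AM were higher ex vivo and 1 in PM higher in culture. Over all genes, 21.2%, 19.4%, 12.1% and 22.9% were higher ex vivo in the same order, and 16.8% were higher in culture in PM. Myd88, which serves all members but TLR3, was higher ex vivo in PM (0.59, adjusted p = 0.0279) and AM (1.03, 0.00118) and at 0.60 (0.0505) in MG and 0.26 (0.357) in KC. Tirap, which bridges surface receptors to MyD88, was higher ex vivo in all 4 organs (1.20, 1.84, 2.04 and 2.29 in MG, KC, PM and AM, with adjusted p of at most 0.00645). Ticam1, which encodes TRIF, the adaptor of TLR3 and of endocytosed TLR4, was not called in any, though it passed in PM without PM-LC replicate 2, the one with the most fibroblast markers (adjusted p = 0.00898), and by DESeq2 (0.0239). The Myd88 call in PM ended without any PM library or PM-LC replicate 1 (up to 0.112), and it also ended without a filter or with a replicate block (0.0616 to 0.0886). In MG, Myd88 passed without MG-LC replicate 2 (0.0135) and, with all libraries, under 5 other settings, DESeq2 and limma-voom among them (0.00456 to 0.0433).

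Downstream of the adaptors, 4 of 16 kinases and ubiquitin ligases were higher ex vivo in MG, 3 in KC, 3 in PM and 5 in AM, and 1, 0, 3 and 3 were higher in culture. Among the 5 transcription factors these counts were 3, 3, 2 and 3 toward ex vivo and 1, 0, 1 and 1 toward culture, and among the 8 negative regulators they were 1, 1, 1 and 3 and 2, 2, 3 and 2. Over all genes the shares higher ex vivo were 21.2%, 19.4%, 12.1% and 22.9% in the same order, and those higher in culture were 25.2%, 14.4%, 16.8% and 25.9%. Called either way were 80%, 60%, 60% and 80% of the transcription factors, above the 46.4%, 33.8%, 28.9% and 48.7% of all genes. The kinases and ubiquitin ligases were at 31.2%, 18.8%, 37.5% and 50%, and the negative regulators at 37.5%, 37.5%, 50% and 62.5%. These lists are small and were not tested as lists. Of these genes, Irf7 was higher in vitro in MG (from 12.9 to 209 CPM, -4.08, adjusted p = 0.038), PM (-3.57, 0.00249) and AM (-1.71, 0.0206) but higher ex vivo in KC (972 against 184 CPM, 2.43, 0.0276), and Irf5 was called in MG alone (1.39, 0.0485). Ikbke, an IRF kinase, rose from 0.384 to 85.3 CPM between MG and MG-LCs (-7.81, 0.000769). The negative regulators Tnfaip3 and Socs1 were higher in vitro in PM (from 21.1 to 460.2 CPM for Tnfaip3, -4.46, 0.0138, and -1.92, 0.0197 for Socs1), Tnfaip3 in KC as well (-2.21, 0.0415) and Socs1 in AM (-2.87, 0.00147). The calls of Irf7 in MG, AM and KC ended without single libraries (any MG library, adjusted p up to 0.132, any AM library, up to 0.082, and KC replicate 2 or 3 or KC-LC replicate 3, up to 0.0879), as did Irf5 in MG (any MG library or MG-LC replicate 2 or 3, up to 0.128) and Tnfaip3 in KC (all but KC-LC replicate 1, up to 0.109) and PM (any PM library, up to 0.0685). With all libraries, Irf7 in MG and Tnfaip3 in KC also failed under limma-voom or a replicate block (0.107 to 0.113 and 0.0756 to 0.0838), Irf5 in MG under the block or without a filter (0.062 to 0.0651), and Irf7 in AM in 1 model of all 24 libraries (0.144). Irf5 passed in PM without PM-LC replicate 2 (0.0384) and in AM without AM-LC replicate 1 (0.0191).

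The genes whose pattern was most like that of a receptor over the 24 libraries were found among 17408 genes by the Pearson correlation of log2 CPM, as a description without a test, since groups of libraries share organ and state. Tlr8 was nearest to Hip1 (r = 0.98) and Cd44 (0.97), and Tlr1 to Lacc1 (0.97) and Abcc3 (0.97). Tlr12 was nearest to Ly6g6e and Kcnj9 (both 0.94), Tlr3 to Extl3 (0.94) and Slc12a9 (0.93), and Tlr13 to Dnajb4 (0.94) and Ptpra (0.90). For Tlr4 these were Rnf185 (0.92) and Prpf18 (0.87), for Tlr2 Ppp2cb and Xbp1 (both 0.87), for Tlr5 Gm38079 (0.89) and Agps (0.88), for Tlr7 Slmap and Osbpl11 (both 0.85), and for Tlr9 Gm11827 and P3h2 (both 0.89). By rank (Spearman correlation) the Tlr2 pairs were much less alike, at 0.45 with Ppp2cb and 0.57 with Xbp1. Tlr8 with Cd44 was at 0.70, and Tlr12 with Ly6g6e and Kcnj9 at 0.74 and 0.72. The remaining pairs were at 0.75 or more. Within the family the closest pair was Tlr3 and Tlr9 (0.85), and Tlr8 had no member nearer than Tlr2 (0.13).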

How the data were processed

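RNA of 24 libraries (3 in each of 8 groups) was made into sequencing libraries with a low-input kit that does not mark strand and read as single ends. The authors trimmed the reads, aligned them to the mouse genome and deposited raw counts of reads per gene, unnormalised, with STAR. The submitters' notes name Trimmomatic 0.36 and STAR 2.5.2b, and also a human build, which the mouse gene identifiers contradict; the annotation release and the strand setting were not given in the sources used here. The read totals, between 29569486 and 47105111, set the precision of low values, and detection limits of 3 reads cover counting error only (95%).

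Of the 45706 identifiers, 45143 were matched to a symbol, and positions and exon lengths came from GENCODE vM21 (GRCm38). Genes with too few reads were removed with filterByExpr (minimum count 10), libraries were scaled by TMM, and each contrast was tested two-sided with edgeR's quasi-likelihood test (edgeR 4.0.16, R 4.3.3), with Benjamini-Hochberg adjustment over all genes tested and a call at an adjusted p under 0.05. Each organ's sorted and cultured libraries had their own fit, the 6 pairs of sorted groups shared 1 fit, and so did the 6 pairs of cultured groups. The sample titles number the replicates and name no animal or flask, so the replicates were taken as separate preparations. CPM per kilobase used the union of a gene's exons. Alternatives were DESeq2 1.42.0, limma-voom (limma 3.58.1), other scaling, filters and effect minimums, a replicate block, and leaving out each library. Named partner genes were a fixed set of 9 (Unc93b1, Cd14, Ly96, Cd180, Ly86, Myd88, Ticam1, Irf5 and Irf7) plus, in each organ, the 4 called genes with the largest fold change and a mean of at least 5 CPM, and values are also given for other genes of the lists, chosen after they were seen, where a named gene's result is set out in further organs or a list's members are named. For each receptor the 2 genes most alike in pattern were named.

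The members and gene lists were chosen with earlier results of these data known. On counts simulated for the MG comparison (14416 genes), the test called 39 of 100 genes changed 4-fold and 78 of 100 changed 16-fold, and for the AM comparison (13196 genes) 57 and 93 of 100. No pair of replicates was as alike as sampling noise allows, so none was treated as a duplicate.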

Additional observations from a re-analysis of the deposited data

Results flagged for a closer look

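The culture difference (ex vivo minus in vitro) of 7 receptor genes differed among the 4 organs by the interaction test over all 24 libraries (edgeR's quasi-likelihood F test, Benjamini-Hochberg adjustment over 17408 genes, of which 36.3% were called). For Tlr8 (adjusted p = 1.129e-06) the log2 difference was -10.29 in MG and 2.29 in AM, both called, with no overlap between states in either. Tlr3 (1.453e-05) was higher ex vivo in MG and KC and higher in vitro in PM, and Tlr1 (3.391e-05) was higher ex vivo in MG and KC and higher in vitro in PM and AM. Tlr12 (8.479e-05) was higher ex vivo in KC and MG and held 0 to 2 reads in each PM and PM-LC library. Tlr2 (0.003232) was called in AM alone, where its level ex vivo was the highest of any group. Tlr5 (0.02548) was higher ex vivo in MG and AM and was not called in KC and PM. Tlr13 (0.02628) was higher in vitro in KC, PM and AM and at -0.09 in MG. No group had 4 or more libraries, so single outlying libraries were not looked for by a test.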

How the results depend on the processing

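The counts of called receptor genes in MG, KC, PM and AM against their cultures (6, 4, 3 and 6) were 6, 4, 4 and 6 with DESeq2, 6, 4, 3 and 6 with limma-voom, 6, 4, 3 and 6 with relative log scaling and 6, 3, 3 and 7 without a filter. With a minimum log2 fold change of 1.5, KC fell to 2 and PM to 1. Leaving out 1 library at a time gave 4 to 6 in MG, 2 to 4 in KC, 1 to 5 in PM, 5 to 6 in AM, 6 to 8 for the interaction, 35 to 45 for the sorted pairs and 1 to 7 for the cultured pairs. With all 24 libraries in 1 model the cultured pairs rose from 6 to 10. The same model ended Tlr4 in AM (adjusted p = 0.433), Tlr1 in KC (0.112) and PM (0.144), Tlr9 in MG (0.0747), Tlr12, Tlr7 and Tlr9 between MG and KC (0.376, 0.0699 and 0.11), Tlr13 between KC and PM (0.074), Irf7 (0.144), Ly86 (0.143) and Unc93b1 (0.0971) in AM, and Cd180 in KC (0.0736). The labels give each group the same replicate numbers. Within an organ, sorted and cultured samples with the same number did not deviate together (correlation -0.1041 to 0.0558), so the numbers were not taken to pair samples. Between organs, cultures with the same number correlated at -0.3848 to 0.2759 (replicate 1), -0.3289 to 0.1824 (replicate 2) and -0.0703 to 0.2877 (replicate 3). Sorted samples of different organs with the same number lay between -0.0615 and 0.0433. With a replicate block the counts were 5, 3, 2 and 6 in MG, KC, PM and AM, 40 in sorted pairs, 5 in cultured pairs and 7 for the interaction. Tlr1 in MG-LCs against AM-LCs failed under limma-voom or the block (adjusted p = 0.0546 to 0.0809), Tlr3 in KC under the block or without a filter (0.0674 to 0.069), Tlr3 in PM under the block (0.0722), Ly86 in PM under the block, without a filter or in the single model (0.0928 to 0.649) and Cd14 in MG under the block or without a filter (0.05001 to 0.0757).

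The endosomal share of MG was 62.3% with the longest transcript and 61.3% with the coding length as the gene's length. Without Tlr13 it was 50.6% in MG, 42.8% in MG-LCs, 34.6% in KC-LCs, 35% in PM, 55.9% in PM-LCs, 18.2% in AM and 28.9% in AM-LCs. Without Tlr2 it was 80.1%, 86.9%, 84.9%, 82.8%, 90.9%, 71.4% and 78.8% in the same order, and 78.8% in KC.

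Differences that turned direction were below the threshold for a call both before and after the turn, apart from Irf5 in AM, which was called (adjusted p = 0.0191) without AM-LC replicate 1. They were Tlr13 in MG (0.12 with limma-voom, 0.11 with a replicate block), Tlr4 in KC (-0.18 and -0.16) and Irf5 in AM (0.047 and 0.059). With 1 library left out at a time, the range reached the other sign for Cd14 in PM (-0.043 to 0.27, with -0.0065 between them), Irf5 in AM (-0.30 to 0.47), Ly96 in MG (-0.15 to 0.30) and PM (-0.22 to 0.13), Ticam1 in MG (-0.13 to 0.41), Tlr13 in MG (-0.45 to 0.53), Tlr2 in KC (-0.995 to 0.083), Tlr4 in KC (-0.23 to 0.47) and PM (-0.42 to 0.091), Tlr7 in KC (-0.85 to 0.29) and Unc93b1 in PM (-0.31 to 0.19). The cause was not tested. Depth limits what can be said of Tlr9 in PM and AM and of Tlr12 in KC-LCs, PM, PM-LCs and AM, where most libraries held 3 reads or fewer, and 3 libraries per group limit the rest.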

Other observations

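Tlr6, the other partner of TLR2, followed Tlr1 in MG. Its mean level fell from 40.6 CPM ex vivo to 10.5 CPM in culture (log2 difference 1.90, adjusted p = 0.0196 by edgeR's quasi-likelihood test), and it was not called in KC, PM or AM. Tlr11, the partner of TLR12, was also higher ex vivo in PM, at a mean of 0.917 CPM against 2 reads over the 3 PM-LC libraries (adjusted p = 0.0154), and among the sorted groups it was higher in KC than in MG (50.3 against 0.471 CPM, log2 difference -6.78 for MG minus KC, adjusted p = 1.91e-05). Both genes were read after the values of the family were known.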
